A study of Mus musculus with 6 samples.

Results

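Genes that move calcium across the endoplasmic reticulum (ER), the mitochondria and the plasma membrane, or that read its level in the cytosol, were compared in whole retinas of WT mice and of mice without a working Wfs1 gene, which encodes the ER membrane protein wolframin. The genes were taken by symbol from the deposited count table. They were 40 of its 55376 genes: release channels, pumps, store-operated entry proteins, mitochondrial uptake proteins, exchangers, and calmodulin-dependent and other calcium-regulated proteins. There were 3 WT and 3 Wfs1-KO retinas, all taken at 240 days of age, and the methods state that the retinas of a group came from different mice. The mutants carry a targeted deletion of exon 8 of Wfs1 (genotype Wfs1-/- in the labels), and no other allele or treatment is named for either group. The labels give the strain of both groups as C57x129, while the methods name a single strain, so the match of background between the groups rests on the labels. Wfs1 itself had 64.9, 61.4 and 69.9 CPM (counts relative to the total of the library) in the WT retinas and 9.63, 0.900 and 11.5 CPM in the mutant retinas, so the labels held for all 6. The mutant retinas were not alike in Wfs1: Wfs1-KO replicate 2 lay at -3.41 from the others in log2 CPM.

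The ER is the main calcium store of the cell. SERCA pumps load it from the cytosol, IP3 receptors and ryanodine receptors release calcium from it, and STIM proteins sense its filling and open ORAI channels in the plasma membrane when it is empty. Calcium released near mitochondria passes the outer membrane through VDAC channels and the inner membrane through the uniporter, and leaves again through the exchanger NCLX. Plasma membrane pumps (PMCA) and sodium-calcium exchangers (NCX) remove it from the cell, and calmodulin, CaMKII, calcineurin and calpains respond to it. In the retina these proteins serve photoreceptor and bipolar cell synapses as well as the ganglion cells whose axons form the optic nerve. Loss of wolframin has been linked to altered ER calcium, and the comparison asks whether the RNA of the calcium handling genes differed between the genotypes.

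Total counts were between 17916885 (WT replicate 3) and 101334381 (Wfs1-KO replicate 1), and the lowest count of any of the 40 genes in any retina was 15. Levels are given as CPM after scaling of the libraries with TMM factors, and levels of different genes are compared only as RPKM, the CPM per kilobase of exon. Wfs1-KO replicate 2 stood apart from the other retinas: its mean correlation with the others was 0.918, against 0.962 to 0.971 for the rest, and 32.4% of the 18547 tested genes lay more than 2-fold from the mean of the other mutant retinas. In that retina the summed blood markers reached 481 CPM (12.3 to 41.3 CPM in the rest), the 8 microglia and macrophage markers 311 CPM (39.0 to 58.9 CPM) and the 6 reactive glia markers 868 CPM (159 to 285 CPM). The 8 pigment epithelium markers, at 1031 CPM (536 to 694 CPM in the rest), were also highest in that retina. So were the 8 ganglion cell markers, at 1355 CPM (858 to 1152 CPM). The 7 rod markers, with rhodopsin among them, were at 50689 CPM there and at 64859 to 72991 CPM in the rest, so each library had the markers of retina. The log2 fold changes are therefore given from all 6 retinas and from the 5 without Wfs1-KO replicate 2. The part that the other cell types had in any difference was not tested, and in whole retina fewer cells of a type and less RNA per cell cannot be told apart.

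The 40 genes passed the filter on low counts, and none differed between the genotypes at an adjusted p under 0.05, with all 6 retinas or without Wfs1-KO replicate 2. The share of all tested genes that passed was 0.0108% with all 6 retinas and 0.125% without that replicate. At an unadjusted p under 0.05 there were 0 of the 40 genes in both edgeR fits, against 2.81% and 5.19% of all tested genes. On all 6 retinas there was 1 of the 40 with DESeq2, 1 with limma-voom and 1 in edgeR without the filter on low counts, against 3.15%, 2.16% and 3.78% of all genes in those fits. The adjusted p was between 0.979 and 0.999 by the quasi-likelihood test of edgeR, Benjamini-Hochberg adjusted, on all 6 retinas, and was 0.963 or more without Wfs1-KO replicate 2. On all 6 retinas even Wfs1, with a log2 fold change of -3.15, had an adjusted p of 0.979 in this test, and without Wfs1-KO replicate 2 it had 2.84e-05. The log2 fold change (Wfs1-KO minus WT) was above 0 for 25 of the 40 genes and below 0 for 15, with a median of 0.038, where the median of all tested genes was 0.023. Without Wfs1-KO replicate 2 it was above 0 for 28 and below 0 for 12, with a median of 0.10, against -0.00038 over all genes.

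How large a change these retinas could have hidden is given by the 95% intervals of the log2 fold changes. With all 6 retinas the interval lay within 2-fold in both directions for 29 of the 40 genes and within 1.5-fold for 10, namely Stim1, Stim2, Mcu, Vdac2, Calm2, Camk2b, Camk2d, Camk2g, Capn1 and Capn2. Without Wfs1-KO replicate 2 it lay within 2-fold for 38 genes and within 1.5-fold for 28. Its ends reached past 2-fold for Atp2a1 and Itpr3, which were among the genes with the lowest levels.

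**Figure D1:**
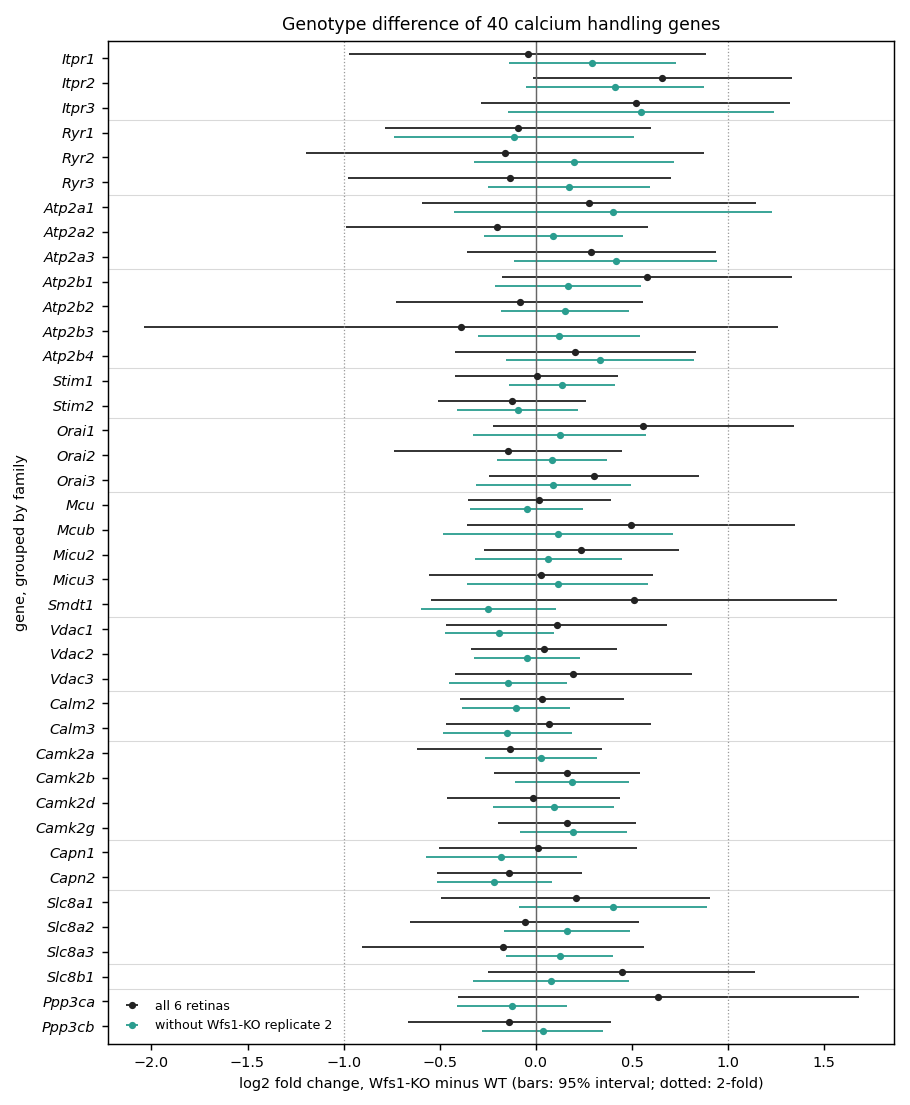
Log2 fold change (Wfs1-KO minus WT) of each of the 40 genes, grouped by family, with 95% intervals from edgeR; black marks all 6 retinas, green the 5 without Wfs1-KO replicate 2, and dotted lines mark 2-fold. Each interval includes 0, and without Wfs1-KO replicate 2 the intervals of 38 genes lie between the dotted lines.

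The genotypes separated fully in 1 of the 40 genes, against 8.96% of all tested genes. This was Camk2g, one of the CaMKII kinase genes, which had 121, 121 and 127 CPM in the WT retinas and 133, 130 and 149 CPM in the mutants, giving a log2 fold change of 0.16 (95% interval -0.20 to 0.52, adjusted p = 0.979 from edgeR's test) and of 0.19 without Wfs1-KO replicate 2. Without Wfs1-KO replicate 2 the genotypes separated in 11 of the 40 genes, against 22.5% of all tested genes. Of these, 6 were higher in the mutant retinas (Stim1, Orai2, Camk2b, Camk2g, Slc8a1 and Slc8a3), where 11.0% of all genes were, and 5 were lower (Smdt1, Vdac1, Capn1, Capn2 and Ppp3ca), where 11.4% were. The largest log2 fold change among these 11 genes was 0.40, that of Slc8a1.

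Among the release channels, Itpr1 encodes the IP3 receptor best known from neurons. Itpr1 (chromosome 6, from 108213096 to 108551109 of mm10) had 43.6, 59.1 and 76.0 CPM in the WT retinas and 72.6, 27.2 and 73.3 CPM in the mutants. The lowest and the second lowest values came from Wfs1-KO replicate 2 and WT replicate 1, and the genotypes overlapped. The log2 fold change of Itpr1 was -0.04 (standard error 0.40) with a 95% interval from -0.97 to 0.88, and was 0.29 (-0.14 to 0.73) without Wfs1-KO replicate 2.

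Itpr2, the second IP3 receptor gene, had the largest log2 fold change of the 40 genes and was picked out after the values were seen. It had 18.0, 23.1 and 31.5 CPM in the WT retinas and 34.3, 50.3 and 29.7 CPM in the mutants. The highest WT retina lay above the lowest mutant retina, so the genotypes overlapped by a single pair. The log2 fold change was 0.66 (95% interval -0.01 to 1.33, adjusted p = 0.979 from edgeR's test) and 0.41 (-0.05 to 0.87) without Wfs1-KO replicate 2, which had the highest value. Itpr2 was the 1 gene with an unadjusted p under 0.05 in DESeq2, in limma-voom and in edgeR without the filter (0.0499, 0.0414 and 0.0333), with adjusted p of 0.997, 0.975 and 0.876. Itpr3, the least abundant of the 3 receptors, was at 4.03 ± 1.74 CPM in the WT retinas and 5.73 ± 0.67 CPM in the mutants (SD, n = 3 each), with log2 fold changes of 0.52 and, without Wfs1-KO replicate 2, 0.55. The value for Itpr3 was 0.88 without WT replicate 3 and 0.28 without WT replicate 2.

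By RPKM, Itpr1 supplied 69.7%, 72.7% and 69.8% of the IP3 receptor RNA in the WT retinas, and 67.0%, 36.0% and 70.6% in the mutant retinas. Itpr2 supplied 24.1%, 23.8% and 24.2% in WT and 26.5%, 55.7% and 24.0% in mutant retinas. The make-up was thus alike in 5 retinas, and in Wfs1-KO replicate 2 Itpr2 was the most abundant of the 3.

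Of the ryanodine receptor genes, Ryr2, whose product is the main release channel of heart muscle, gave 59.6% to 69.1% of the family's RPKM in the 6 retinas, and Ryr3 gave 27.8% to 31.8%. Ryr2 had 36.3, 62.3 and 73.2 CPM in the WT retinas and 64.9, 22.3 and 66.2 CPM in the mutants. Ryr3 followed the same retinas, with 16.1, 23.0 and 25.3 CPM in the WT retinas and 23.8, 10.2 and 24.5 CPM in the mutants. For both genes, Wfs1-KO replicate 2 was the lowest retina and WT replicate 1 the second lowest. Their log2 fold changes were -0.16 and -0.14 with all 6 retinas, and 0.20 and 0.17 without Wfs1-KO replicate 2. Ryr1, the skeletal muscle form, was at 2.23 to 3.49 CPM in the 6 retinas, with a log2 fold change of -0.09 (95% interval -0.78 to 0.60), and -0.11 (-0.74 to 0.51) without Wfs1-KO replicate 2. The 13 skeletal muscle markers summed to 7.02 to 14.7 CPM per retina, and the fast muscle genes Myh4 and Tnnc2 had 0 counts in each retina.

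The pumps were led by Atp2a2 (SERCA2) on the ER and Atp2b1 (PMCA1) on the plasma membrane. Atp2a2 (chromosome 5, from 122453514 to 122502225 of mm10) had 264, 363 and 385 CPM in the WT retinas and 366, 159 and 355 CPM in the mutants. Wfs1-KO replicate 2 had the lowest value, WT replicate 1 the second lowest, and the genotypes overlapped. Its log2 fold change was -0.20 (standard error 0.34, 95% interval -0.99 to 0.58), and without Wfs1-KO replicate 2 it was 0.09 (standard error 0.16, 95% interval -0.27 to 0.45).

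Atp2a2 gave 96.7% to 98.7% of the SERCA RPKM in every retina. Atp2a3 was at 3.71 ± 0.54 CPM in the WT retinas and 4.52 ± 1.04 CPM in the mutants, and Atp2a1, the fast muscle pump, at 0.81 ± 0.08 and 0.97 ± 0.24 CPM (SD, n = 3 each). Atp2a3 and Atp2a1 had log2 fold changes of 0.29 and 0.28, and 0.41 and 0.40 without Wfs1-KO replicate 2. The ratio of the ER pump to the release channel, Atp2a2 to Itpr1 in RPKM, was 10.8 ± 1.13 in WT and 9.81 ± 1.01 in mutant retinas (SD, n = 3 each), and the genotypes overlapped. It was 10.96 in Wfs1-KO replicate 2, where both genes were low.

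Atp2b1 had 290, 434 and 432 CPM in the WT retinas and 434, 857 and 435 CPM in the mutants. The high mutant mean came from Wfs1-KO replicate 2, while the other mutant retinas matched WT replicates 2 and 3. Its log2 fold change was 0.58 (95% interval -0.18 to 1.33) with all 6 retinas and 0.17 (-0.21 to 0.55) without that replicate. Atp2b3, a PMCA form known from neurons, had 23.2, 29.5 and 36.8 CPM in the WT retinas and 29.5, 3.36 and 35.3 CPM in the mutants. Its low value in Wfs1-KO replicate 2 was the largest single departure among the 40 genes, at -3.22 from the other mutant retinas in log2 CPM. Atp2b3 had a log2 fold change of -0.39 (95% interval -2.04 to 1.26), and 0.12 (-0.30 to 0.54) without that retina. Both genes were picked out after the values were seen.

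In that retina Atp2b1 made up 90.4% of the PMCA RPKM, against 67.9% to 71.3% in the other 5, and Atp2b3 0.525%, against 6.95% to 8.56%. Atp2b2, a pump of sensory cells and neurons, had 6.36% of the family there and 16.5% to 19.6% elsewhere. Its log2 fold change was -0.08, and that of Atp2b4 was 0.20. They were 0.15 and 0.33 without Wfs1-KO replicate 2, so the sign of Atp2b2 rested on that retina.

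**Figure D2:**
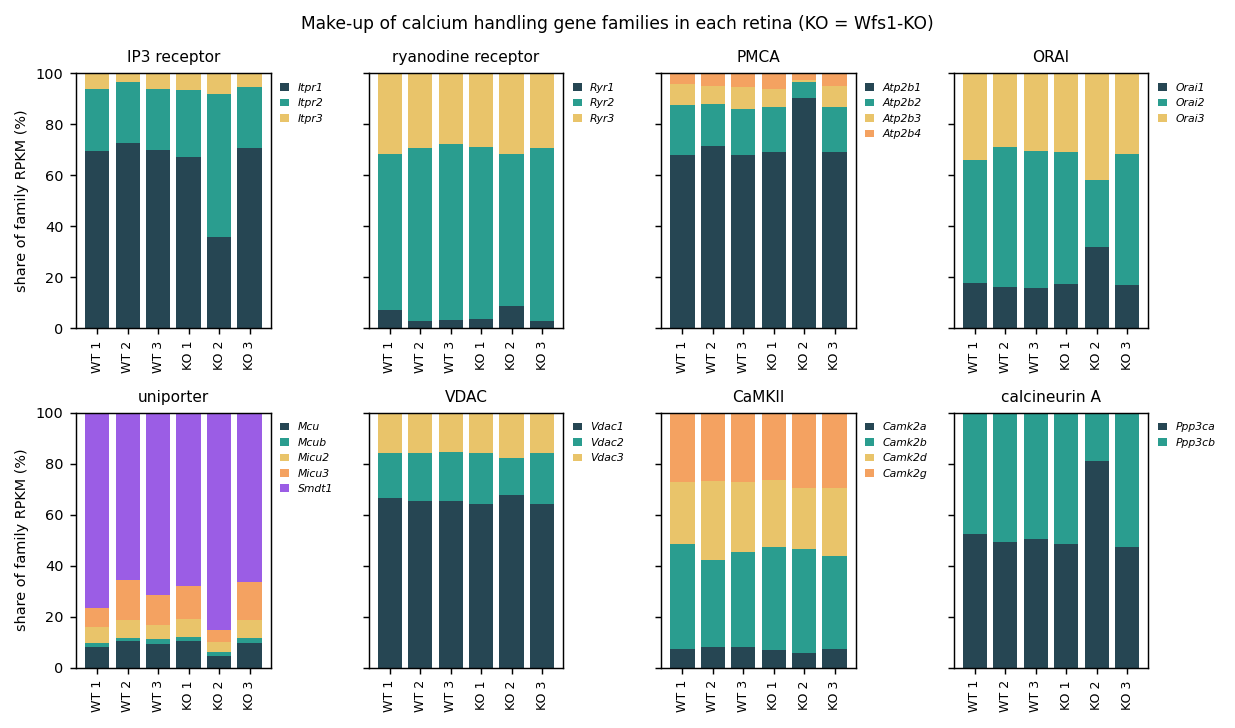
Share of each gene in the summed RPKM of its family, in percent, for 8 families and each of the 6 retinas (KO stands for Wfs1-KO). In most families the bars of 5 retinas look alike, while Wfs1-KO replicate 2 differs for the IP3 receptors, PMCA, ORAI, the uniporter genes and calcineurin A, with Itpr2 at 55.7% and Ppp3ca at 81.1%. WT replicate 1 also departs for Micu3, at 7.44%, and Ryr1, at 6.98%. The retinas apart from these 2 have 11.9% to 15.7% and 2.75% to 3.66%.

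Store-operated entry genes had low to moderate levels. Stim1 and Stim2, the ER calcium sensors, were at 16.3 ± 0.28 and 8.54 ± 0.89 RPKM in WT and at 16.3 ± 2.83 and 7.83 ± 0.40 RPKM in mutant retinas (SD, n = 3 each). Stim1 gave 63.5% to 69.2% of the pair in each retina. Their log2 fold changes were 0.004 (95% interval -0.42 to 0.43) and -0.13 (-0.51 to 0.26), and 0.14 and -0.10 without Wfs1-KO replicate 2. Among the ORAI channel genes, Orai2 was the most abundant by RPKM in 5 retinas, with 48.1% to 54.6% of the family, and had 26.1% in Wfs1-KO replicate 2.

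Orai1 had 6.44, 5.13 and 5.22 CPM in the WT retinas and 6.27, 12.5 and 6.02 CPM in the mutants, and Orai2 had 37.7, 37.4 and 38.5 CPM in the WT retinas and 40.8, 22.2 and 39.8 CPM in the mutants. The 2 genes thus departed in opposite directions in Wfs1-KO replicate 2. With all 6 retinas their log2 fold changes were 0.56 and -0.15, and without that replicate 0.12 and 0.08. Orai3 was at 11.95 ± 1.84 CPM in the WT retinas and 14.7 ± 3.35 CPM in the mutants (SD, n = 3 each), and its log2 fold change was 0.30, and 0.09 without that replicate.

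Of the mitochondrial genes, Mcu, which encodes the pore of the uniporter, showed little spread. Mcu (chromosome 10, from 59446984 to 59616692 of mm10) had 39.7, 43.9 and 39.8 CPM in the WT retinas and 40.5, 45.1 and 39.4 CPM in the mutants. The 6 values lay within a narrow band, Wfs1-KO replicate 2 included. The log2 fold change was 0.02 (standard error 0.16), with a 95% interval from -0.35 to 0.39, and -0.05 (-0.34 to 0.24) without that replicate.

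The partners of the pore set the balance of the complex: Mcub encodes a subunit that dampens uptake, Micu2 and Micu3 encode calcium-sensing gatekeepers, and Smdt1 (EMRE) encodes the small subunit that links pore and gatekeepers. The ratio of Mcub to Mcu in RPKM was 0.196, 0.121 and 0.201 in WT and 0.168, 0.321 and 0.215 in mutant retinas. The ratio of Micu2 to Mcu was 0.671 ± 0.111 in WT and 0.777 ± 0.086 in mutant retinas, and that of Micu3 to Mcu was 1.23 ± 0.287 and 1.26 ± 0.264 (SD, n = 3 each). The genotypes overlapped in each of these ratios, and the highest Mcub ratio was in Wfs1-KO replicate 2. The log2 fold changes of Mcub, Micu2 and Micu3 were 0.49, 0.24 and 0.03, and 0.12, 0.06 and 0.11 without that replicate.

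Smdt1 had 114, 82.5 and 90.7 CPM in the WT retinas and 80.1, 248 and 81.9 CPM in the mutants, and was picked out after the values were seen. Wfs1-KO replicate 2 was far above the other 5 retinas, while the other mutant retinas were the lowest of the 6. The log2 fold change was accordingly 0.51 (95% interval -0.54 to 1.57) with all 6 retinas and -0.25 (-0.60 to 0.10) without that replicate. Smdt1 has the shortest exon length of the 40 genes, 958 bases.

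The promoters of the genes were searched on both strands for motifs of the ER stress and calcium responses, in RefSeq windows of 250 bases before to 50 after the start (GRCm38.p6). The motifs were ERSE (CCAAT, 9 bases of any kind, CCACG), ERSE-II (ATTGG, 1 base of any kind, CCACG), the UPRE core (TGACGTGG) and the CRE bound by CREB (TGACGTCA). Windows were found for 28 of the 40 genes. None of their 33 windows held ERSE, ERSE-II or the UPRE core, which occurred in 0.119%, 0.0365% and 0.676% of all 32851 windows. The CRE occurred in 1 of them, that of Smdt1, and in 1.79% of all windows. The sequence around it, at chr15:82345874-82345933 on the plus strand, is shown with the CRE in capitals because it is the single match among the genes. Its first base lies 146 bases before the start.
Smdt1 promoter: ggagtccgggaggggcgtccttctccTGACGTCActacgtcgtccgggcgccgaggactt

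VDAC channel genes were among the most abundant of the 40. Vdac1 was at 319 ± 29.5 RPKM in WT and 344 ± 109 RPKM in mutant retinas, Vdac2 at 89.7 ± 4.16 and 92.5 ± 9.08, and Vdac3 at 76.4 ± 7.80 and 87.5 ± 31.2 (SD, n = 3 each). Vdac1 gave 64.1% to 67.5% of the family in every retina, Wfs1-KO replicate 2 included. By retina, Vdac1 had 717, 657 and 596 CPM in the WT retinas and 574, 967 and 582 CPM in the mutants. The log2 fold changes of Vdac1, Vdac2 and Vdac3 were 0.11, 0.04 and 0.19 with all 6 retinas and -0.19, -0.05 and -0.15 without that replicate. Of the 8 mitochondrial genes, 8 had a log2 fold change above 0 with all 6 retinas and 3 without Wfs1-KO replicate 2, so the sign of most rested on that retina.

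Exchangers move calcium out in return for sodium. Slc8b1 (NCLX), which empties the mitochondrial matrix, had 8.46, 6.96 and 8.17 CPM in the WT retinas and 8.39, 15.5 and 8.26 CPM in the mutants. Its ratio to Mcu in RPKM was 0.212 ± 0.033 in WT and 0.280 ± 0.086 in mutant retinas (SD, n = 3 each), and the genotypes overlapped. Slc8a3 was the main plasma membrane exchanger by RPKM, with 60.1% to 72.0% of the NCX family. Slc8a3 had 97.3, 101 and 100.1 CPM in the WT retinas and 113, 47.8 and 104 CPM in the mutants, so that Wfs1-KO replicate 2 was lowest and the other mutant retinas highest.

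Slc8a1, the exchanger of heart and brain, had 46.1, 80.3 and 86.0 CPM in the WT retinas and 94.8, 58.0 and 92.3 CPM in the mutants. Its log2 fold change was 0.21 (95% interval -0.49 to 0.91), and 0.40 (-0.09 to 0.89) without Wfs1-KO replicate 2. Slc8a2 had a log2 fold change of -0.06, and 0.16 without that replicate. The log2 fold changes of Slc8b1 and Slc8a3 were 0.45 and -0.17, and 0.08 and 0.12 without it.

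Calcium-regulated enzymes and sensors held the most abundant of the 40 genes by RPKM. Calm2 and Calm3, which encode the same calmodulin protein, were at 419 ± 36.8 and 344 ± 59.3 RPKM in WT and at 429 ± 64.7 and 360 ± 83.9 RPKM in mutant retinas (SD, n = 3 each). Calm2 gave 51.8% to 59.3% of the pair. Their log2 fold changes were 0.03 (95% interval -0.39 to 0.46) and 0.07 (-0.47 to 0.60). Both had the other sign without Wfs1-KO replicate 2, at -0.10 (-0.39 to 0.18) and -0.15 (-0.48 to 0.19).

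Of the CaMKII genes, Camk2a was the least abundant by RPKM and the other 3 were closer in level, with 34.0% to 41.1% of the family's RPKM from Camk2b, 23.7% to 31.2% from Camk2d, 26.5% to 29.6% from Camk2g and 5.57% to 8.15% from Camk2a, the form best known from forebrain neurons. The share of Camk2a was 7.47%, 7.99% and 8.15% in WT and 7.08%, 5.57% and 7.34% in mutant retinas. It was lower in each mutant retina than in each WT retina, the only share of a family that separated the genotypes. Shares were read for each gene in every family of several genes, and that of Camk2a was picked out after the values were seen. A comparison of 3 against 3 retinas cannot give a two-sided exact permutation p under 0.1. The level of Camk2a itself overlapped, with 52.8 ± 3.83 CPM in the WT retinas and 48.0 ± 10.3 CPM in the mutants (SD, n = 3 each). The log2 fold changes of Camk2a, Camk2b and Camk2d were -0.14, 0.16 and -0.01, and 0.03, 0.19 and 0.09 without Wfs1-KO replicate 2, so the signs of Camk2a and Camk2d rested on that retina.

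Calcineurin, the calcium-dependent phosphatase, has its catalytic subunit from Ppp3ca or Ppp3cb in neural tissue. Ppp3ca had 202, 233 and 205 CPM in the WT retinas and 200.03, 603 and 192 CPM in the mutants, and was picked out after the values were seen. Ppp3cb had 184, 239 and 202 CPM in the WT retinas and 214, 140 and 214 CPM in the mutants. Ppp3ca gave 47.3% to 52.4% of the pair's RPKM in 5 retinas and 81.1% in Wfs1-KO replicate 2. Its log2 fold change was 0.64 (95% interval -0.41 to 1.68) with all 6 retinas and -0.13 (-0.41 to 0.16) without that replicate. Ppp3cb had a log2 fold change of -0.14, and 0.03 without that replicate.

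The calpain proteases were represented by Capn1 and Capn2. Capn2 had 29.4, 28.8 and 28.6 CPM in the WT retinas and 25.3, 28.9 and 24.8 CPM in the mutants, giving a log2 fold change of -0.14 (95% interval -0.51 to 0.24), and -0.22 (-0.52 to 0.08) without Wfs1-KO replicate 2. Capn1, at 12.2 ± 1.53 CPM in the WT retinas and 12.3 ± 2.54 CPM in the mutants (SD, n = 3 each), had a log2 fold change of 0.01, and -0.18 (-0.57 to 0.21) without that replicate.

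**Figure D3:**
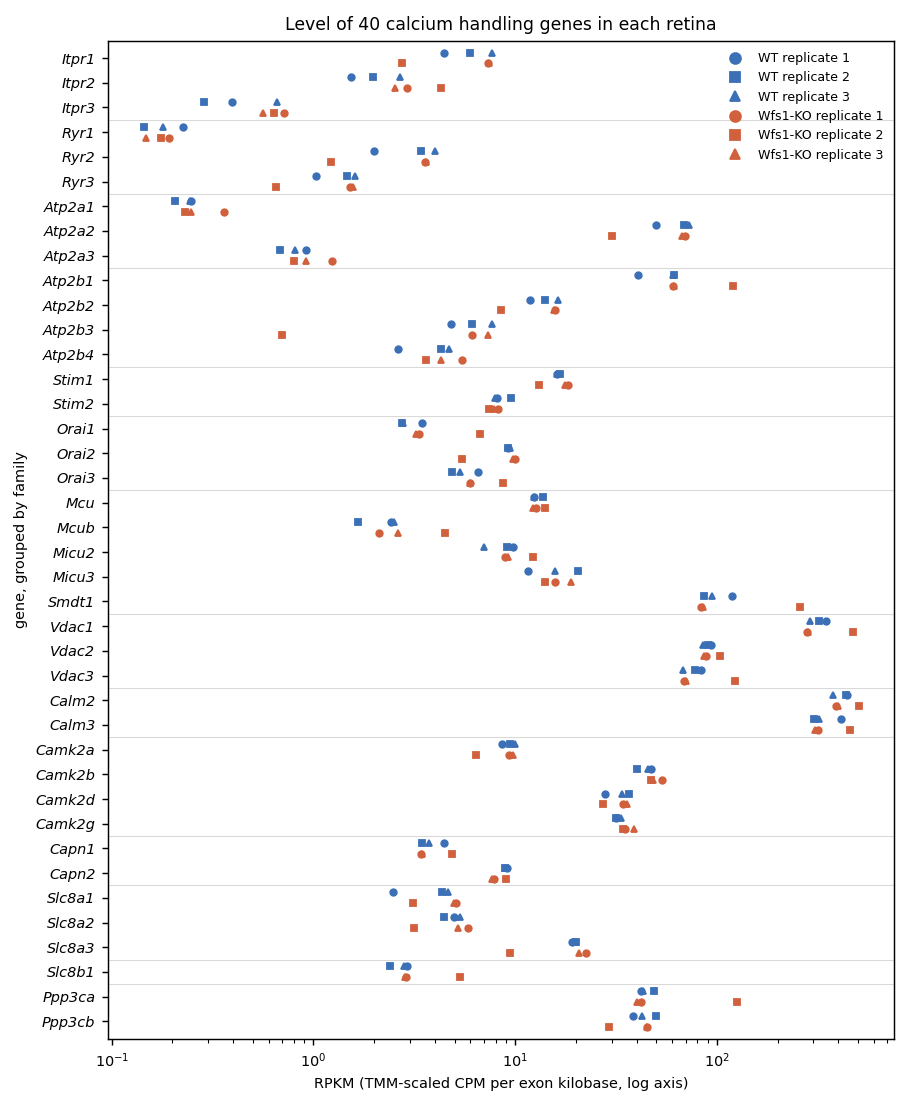
RPKM of each of the 40 genes in each retina on a log axis, grouped by family; blue points are WT, red points Wfs1-KO, and the shape gives the replicate number. WT means run from 0.183 RPKM for Ryr1 to 419 RPKM for Calm2, and the red square (Wfs1-KO replicate 2) often lies apart from the other red points, as for Atp2b3.

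Across the 40 genes, Wfs1-KO replicate 2 lay farther from the other mutant retinas than these lay from each other. On the scale of log2 CPM, 9 of the 40 genes lay more than 2-fold from the mean of the other mutant retinas there, against 32.4% of all tested genes: Ppp3ca, Orai1 and Smdt1 were higher, and Itpr1, Ryr2, Ryr3, Atp2a2, Atp2b3 and Slc8a3 were lower. Between the other mutant retinas, 0 of the 40 genes and 4.37% of all genes differed by more than 2-fold. The summed CPM of the 40 genes was 4980, 5147 and 5055 in WT and 5101, 6345 and 5058 in mutant retinas, so 5 retinas lay close together.

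The direction of the departures tended to go with the exon length of the genes, though not for each gene. In Wfs1-KO replicate 2 long genes tended to be lower and short genes higher relative to the other mutant retinas. The Spearman correlation between departure and exon length was -0.62 over the 40 genes and -0.41 over all 18547. These values share the same libraries and are given as a description. WT replicate 1 departed from the other WT retinas in the same direction, at -0.70 over the 40 genes and -0.40 over all. In Wfs1-KO replicate 2, Ppp3ca (4788 bases) departed by 1.62 in log2 CPM and Atp2b3 (4820 bases) by -3.22. The longer Itpr2 and Atp2b1 were higher there, at 0.65 and 0.98. When all tested genes were split into 5 equal groups by exon length, the median log2 fold change of the shortest group was 0.31 and that of the longest -0.07. The 40 genes had 0.34 over the 4 in the shortest group and -0.05 over the 14 in the longest. The order was turned without Wfs1-KO replicate 2: the medians were -0.08 and 0.09 over all genes, and -0.12 and 0.17 over the calcium handling genes. The part of RNA quality or library preparation in this was not tested.

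With the length trend of each library removed, 0 of the 40 genes passed the threshold and the median log2 fold change of the 40 was 0.0070. The genotypes then separated in 6 of the 40 genes, against 10.5% of all tested genes. Of these, 5 were higher in the mutants (Slc8b1, Orai1, Atp2a1, Camk2g and Slc8a1), against 5.26% of all genes, and Ryr3 was lower, against 5.22%. The separations were narrow. The highest WT and lowest mutant values were 0.840 and 0.843 CPM for Atp2a1 and 8.24 and 8.30 CPM for Slc8b1. They were 6.14 and 6.41 for Orai1, 124 and 129 for Camk2g, and 72.0 and 73.4 for Slc8a1. For Slc8b1, Wfs1-KO replicate 2 had 14.9 CPM and the other mutant retinas 8.34 and 8.30 CPM. On that scale Itpr2 differed by 0.85 in log2 (standard error 0.39, edgeR adjusted p = 0.951).

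**Figure D4:**
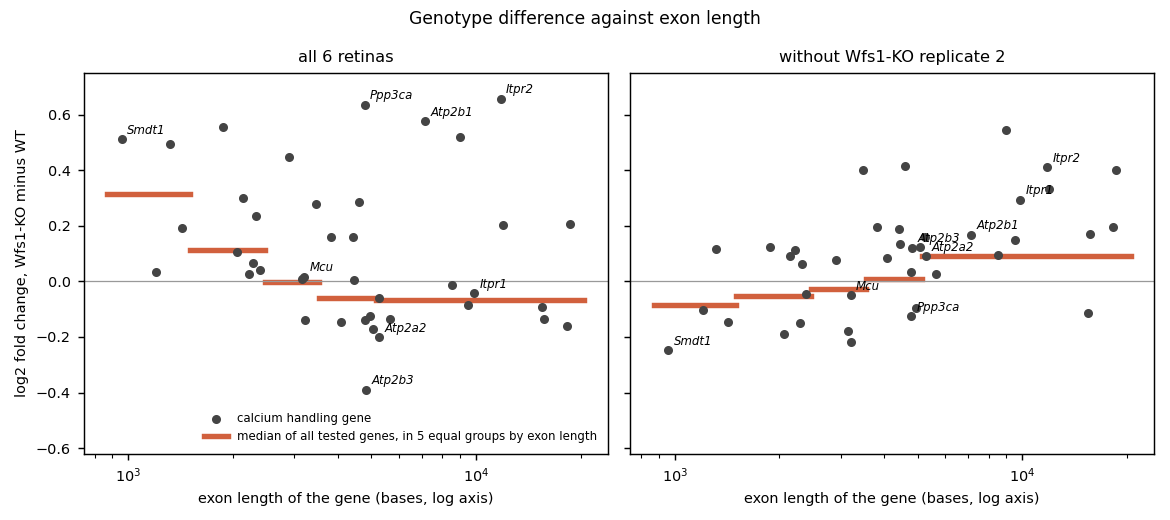
Log2 fold change (Wfs1-KO minus WT) of each of the 40 genes against its exon length on a log axis, with all 6 retinas (left) and without Wfs1-KO replicate 2 (right); red lines give the median of all tested genes in each of 5 equal groups by exon length. On the left the red lines run from 0.31 for the shortest genes to -0.07 for the longest, and on the right from -0.08 to 0.09.

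The rest of the calcium network was read from 11 lists that together held 179 genes, 169 of them tested. None passed an adjusted p under 0.05 in either edgeR fit. At an unadjusted p under 0.05, 2 were higher and 4 lower in mutant retinas, against 2.24% and 0.566% of all tested genes, and with Wfs1-KO replicate 2 left out 3 were higher and 7 lower, against 2.80% and 2.39%. The genotypes separated in 17 of them, 5 higher and 12 lower, against 5.01% and 3.94% of all genes. With Wfs1-KO replicate 2 left out they separated in 48, 15 higher and 33 lower, against 11.0% and 11.4%. The median log2 fold change was -0.03, and -0.02 without Wfs1-KO replicate 2.

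The genes at an unadjusted p under 0.05 also had separate genotypes, and 5 of them are described. Cracr2b, a relative of the ORAI1 regulator CRACR2A, had 2.79, 1.91 and 1.87 CPM in the WT retinas and 3.58, 9.28 and 3.18 CPM in the mutants. Nfatc1, a transcription factor that calcineurin activates, had 0.873, 0.462 and 0.795 CPM in the WT retinas and 1.50, 1.61 and 1.36 CPM in the mutants, close to the low end of what was tested. Cracr2b and Nfatc1 had log2 fold changes of 1.28 and 1.07, and 0.60 and 1.02 without Wfs1-KO replicate 2.

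Cacna2d3, an auxiliary subunit of voltage-gated calcium channels, had 67.4, 68.1 and 82.2 CPM in the WT retinas and 49.4, 46.1 and 60.6 CPM in the mutants. Guca1a, the calcium sensor of the photoreceptor guanylate cyclase, had 25.1, 26.0 and 20.9 CPM in the WT retinas and 16.9, 12.3 and 17.8 CPM in the mutants. Cisd2, an ER protein whose gene is mutated in the second form of Wolfram syndrome, had 101, 113 and 82.7 CPM in the WT retinas and 64.8, 77.5 and 66.1 CPM in the mutants. Each mutant value of these 3 genes was below each WT value, which the rule that chose the genes required. Cacna2d3 and Guca1a had log2 fold changes of -0.48 and -0.62, and of -0.40 and -0.48 without Wfs1-KO replicate 2. The log2 fold change of Cisd2 was -0.51 (standard error 0.18), and -0.60 without Wfs1-KO replicate 2 (edgeR adjusted p of 0.979 and 0.416).

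Genes of the contacts between ER and mitochondria, Cisd2 among them, had a median log2 fold change of -0.15 over 15 tested genes, of which 14 were below 0 and 1 above. Of all 18547 tested genes, 8756 were below 0. The genotypes separated in 4 of the 15, each lower in the mutants, against 3.94% of all genes. An unadjusted p under 0.05 in edgeR's test was reached by 1 of the 15, which was lower, against 0.566% of all genes. The list was chosen with earlier results of these data known. The summed CPM of the contact genes was 1520 to 1601 in WT and 1355 to 1471 in mutant retinas. Their median was -0.09 without Wfs1-KO replicate 2, with 11 genes below 0, where 9603 of all 19178 tested genes were below 0. The genotypes then separated in 6 of the 15, each lower, against 11.4% of all genes. In edgeR's test 1 was lower at an unadjusted p under 0.05, against 2.39%. Over all 6 retinas the summed rod markers were at 65243 to 72991 CPM in the WT retinas and 50689 to 65214 CPM in the mutants. The Mueller glia markers were at 5037 to 5347 and 3975 to 4742 CPM. The rod sums separated narrowly, with 65243 CPM in WT replicate 2 and 65214 CPM in Wfs1-KO replicate 3, and the lowest was that of Wfs1-KO replicate 2. Summed bipolar cell markers also separated the genotypes, at 1372 to 1434 CPM in WT and 1554 to 1681 CPM in mutant retinas. So did the reactive glia sum, at 159 to 199 and 221 to 868 CPM. The lens sum did as well, at 1.36 to 1.87 and 2.45 to 3.93 CPM. The bipolar, reactive glia and lens sums were higher in the mutants, and 13 marker lists were read. By single gene, with all 6 retinas, 2 of 7 rod, 1 of 6 Mueller glia and 0 of 7 bipolar markers separated. The counts were 5 of 6 for reactive glia and 2 of 5 for tested lens markers, against 8.96% of all tested genes. Without Wfs1-KO replicate 2, 6 of 8 pigment epithelium, 5 of 7 rod and 3 of 8 ganglion cell markers separated. Each of these was lower in the mutants, against 11.4% of all genes. So were 3 of 6 cone and 2 of 6 Mueller glia markers. Among those higher were 2 of 7 bipolar, 5 of 6 reactive glia and 3 of 5 lens markers, against 11.0%. In edgeR's test 1 pigment epithelium marker was lower at an adjusted p of 0.0467. The part of these cell types and of lens tissue in the values of the contact genes was not tested.

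The 17 tested calcium-binding proteins of the ER lumen had a median log2 fold change of -0.0066, with 8 genes above 0 and 9 below. It was -0.14 without Wfs1-KO replicate 2, with 3 above and 14 below, where 9603 of all 19178 tested genes were below 0. The genotypes then separated in 8 of the 17, 1 higher and 7 lower, against 11.0% and 11.4% of all genes. In edgeR's test 1 was lower at an unadjusted p under 0.05, against 2.39% of all genes. The other lists had medians between -0.05 and 0.07 with all 6 retinas: 16 tested regulators of the pumps and release channels, 13 of ER leak and stores, 19 of mitochondrial calcium, 18 voltage-gated channel subunits, 18 cytosolic buffers and sensors, 22 genes of calmodulin and calcineurin signaling, 10 calpains and calpastatin, 17 of phospholipase C and IP3 metabolism and 5 potassium-dependent exchangers. Without that replicate these medians ran from -0.20 for the buffers and sensors to 0.21 for the potassium-dependent exchangers. Of the 18 buffers and sensors, 13 were then below 0 and 5 above. The genotypes separated in 7 of them, 1 higher and 6 lower, against 11.0% and 11.4% of all genes. At an unadjusted p under 0.05 in edgeR's test 3 were lower and 0 higher, against 2.39% and 2.80%. Of the 18 voltage-gated channel subunits, 15 were then above 0 and 3 below.

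Reads of a few of the 40 genes can belong to another gene. Of the 75-base stretches in the transcripts of Capn2, 22.2% also occur in another annotated gene, and the share was 15.8% for Atp2a1, 11.4% for Vdac3, whose copies are pseudogenes, 6.59% for Smdt1 and 4.10% for Ryr3. It was 3.04% or less for the other 35. These shares are of distinct stretches in annotated transcripts, searched on both strands, and not of reads, so they do not give the part of the counts affected. The strand setting of the counting was not stated, and how far the counts of these 5 genes are affected was not tested.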

How the data were processed

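The RNA of whole retinas was sequenced, from 3 WT and 3 Wfs1-KO mice. Per the labels, the authors trimmed reads with Trimmomatic 0.39, mapped them to mm10 with STAR 2.5.3a and made counts per gene with featureCounts 1.6.4; the methods name other versions of the trimmer and the aligner. The labels name Trizol and TruSeq kits for RNA and libraries, the methods a column kit. The deposited values are raw counts per gene, with the exon length used here for RPKM. Of 8 library columns, 6 were matched to samples by the genotype letter (C or W) and number in their names, and 2 that matched no sample were not used.

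The genotypes were compared with edgeR 4.0.16 (R 4.3.3): TMM factors, filterByExpr, a quasi-likelihood fit on genotype alone and Benjamini-Hochberg adjustment over all tested genes (threshold 0.05), in all 6 retinas and without Wfs1-KO replicate 2. The standard error is the size of the log2 fold change over the square root of F, and intervals use the fitted degrees of freedom. The fit was tested on simulated data. DESeq2 1.42.0, limma-voom (limma 3.58.1), other scalings and filters, removal of the length trend, a replicate block and leaving out each retina were the alternatives. DESeq2 and the removal of the length trend without Wfs1-KO replicate 2 were added after seeing the data.

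Every calcium handling gene is named; Itpr1, Atp2a2 and Mcu were to be given in full, with any other at an unadjusted p under 0.05, and, of the lists, up to 3 genes each with the largest log2 fold change at an unadjusted p under 0.05 and separate genotypes. The genes, the lists and this rule were chosen with earlier results of these data known. Proteins were not analysed here, and 1 listed gene that met the rule is not reported here. No 2 libraries agreed within counting noise. Precision is limited by 3 retinas per group, and a count of 0 allows up to 3 counts, which is 0.0291 to 0.170 CPM, for counting error only.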

Additional observations from a re-analysis of the deposited data

How the results depend on the processing

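None of the 40 calcium handling genes passed the threshold in any of the 16 alternatives, and 0 to 2 had an unadjusted p under 0.05. The number of all tested genes past the threshold was 2 with all 6 retinas, 49 with DESeq2, 6 with the length trend removed, 9 with no filter and 1 with the replicate block. Leaving out one retina at a time gave 0 to 24, the latter without Wfs1-KO replicate 2, where DESeq2 gave 95 and removal of the length trend 31. The median log2 fold change of the 40 genes was 0.038, 0.0070 with the length trend removed and 0.020 to 0.103 with one retina left out; without Wfs1-KO replicate 2 it was 0.103 with DESeq2 and 0.078 with the length trend removed. The genes with separate genotypes numbered 1, 6 with the length trend removed and 2 to 11 with one retina left out, against 8.96%, 10.5% and 15.5% to 22.5% of all tested genes. Without Wfs1-KO replicate 2, 21 of the 40 log2 fold changes had the other sign, and 8 moved by more than their standard error. In the other alternatives on all 6 retinas 1 to 7 had the other sign. The causes were not tested. The replicate numbers were not treated as pairs: deviations from the group means correlated at -0.234, -0.111 and 0.078 for numbers 1, 2 and 3, and the replicate block called 0 of the 40 genes. With Wfs1-KO replicate 2 in the fit the intervals of 11 of the 40 genes reach past 2-fold, and without it those of Atp2a1 and Itpr3, both of low level, do.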
